A study of Caenorhabditis elegans with 2 samples.

Results

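The weaker peaks of the eGFP-CEH-39 chromatin immunoprecipitation were 1454 of the 30000 rows of the pooled peak list. They were selected on measured values: their deposited q-value was under 0.05, and they were not among the 1244 rows that the authors kept after thresholding on the irreproducible discovery rate (IDR). The other 27302 rows had a larger q-value and are called lower rows here. The libraries were 2 biological replicates of whole C. elegans embryos of mixed stage and mixed sex, from strain OP169. That strain carries the unc-119(ed3) mutation on III and wgIs169, an inserted transgene for ceh-39 whose product carries eGFP, so both replicates share the mutation and the transgene. No library of another genotype or treatment was compared, and the level and cells of expression of the tagged protein were not measured here. The data were peak positions and the authors' signal value per peak, for which the sources used here give no scale; no read counts were used, so depth is unknown.

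CEH-39 is a ONECUT protein, a class of transcription factor with a cut domain and a homeodomain. It is known as an X signal element, one of the X-encoded proteins that repress the sex switch gene xol-1 in early embryos. IDR thresholding is meant to keep peaks whose rank is repeatable between replicates. Here the kept rows were the first 1244 of the pooled list by signal. Of these, 1176 overlapped a peak in both replicate lists and 62 in that of replicate 1 only. Rows that pass the q-value threshold but not the IDR threshold form a band of lower rank. Many worm genes receive a trans-spliced leader, so an annotated start can lie downstream of the site where transcription begins.

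Sequence windows at 8 weaker summits show the kinds of site on which the sequence results turn. Each runs 50 bp to both sides of the summit, on the plus strand of ce11 (WBcel235), read from the RefSeq genome, with the hexamer in capitals. The first 5 are among the strongest weaker peaks that hold ATCGAT, the palindromic core that ONECUT proteins bind, outside annotated UTRs. These 5 were not drawn from every chromosome. They lie at sdz-4 (chrII:958803-958903, 65 bp upstream of the start), dhhc-8 (chrIII:13106074-13106174, intergenic), ppm-1.D (chrIII:2331429-2331529, 93 bp upstream), C33D9.13 (chrIV:8785301-8785401, 74 bp upstream) and his-72 (chrIII:12369158-12369258, 158 bp upstream).
sdz-4: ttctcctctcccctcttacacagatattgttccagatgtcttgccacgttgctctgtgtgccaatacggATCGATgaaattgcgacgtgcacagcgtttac
dhhc-8: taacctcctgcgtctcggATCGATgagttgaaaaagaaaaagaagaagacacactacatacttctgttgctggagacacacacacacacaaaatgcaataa
ppm-1.D: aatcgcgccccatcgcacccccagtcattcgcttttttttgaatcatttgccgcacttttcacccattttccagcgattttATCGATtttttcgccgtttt
C33D9.13: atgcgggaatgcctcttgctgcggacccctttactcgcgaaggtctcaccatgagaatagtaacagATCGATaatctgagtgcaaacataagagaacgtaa
his-72: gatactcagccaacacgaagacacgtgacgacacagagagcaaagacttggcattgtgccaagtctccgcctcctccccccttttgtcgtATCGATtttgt
The other 3 were chosen after their values were seen. They show ACGCAG near rga-9 (chrII:15263194-15263294) and, read on the minus strand, spat-3 (chrX:4609720-4609820), 2 of the 3 strongest weaker peaks that hold it outside promoter windows; the third is dhhc-8, whose window above also holds it on the minus strand, in lower case. They also show ATTGAT, the second ONECUT core, read on the minus strand in an intron of C46H3.2 (chrX:1222511-1222611).
rga-9: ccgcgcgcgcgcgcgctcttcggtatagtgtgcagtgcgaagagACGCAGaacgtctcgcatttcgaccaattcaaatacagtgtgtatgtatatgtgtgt
spat-3: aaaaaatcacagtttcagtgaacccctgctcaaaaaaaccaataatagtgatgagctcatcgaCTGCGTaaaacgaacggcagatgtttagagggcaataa
C46H3.2: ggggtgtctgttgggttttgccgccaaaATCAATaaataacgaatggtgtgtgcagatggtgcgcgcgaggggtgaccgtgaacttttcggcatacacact

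The values that chose the weaker peaks are given as a description. Their signal ran from 47.3 to 76.5 with a median of 58.5, against a median of 108 in IDR peaks and 20.7 in lower rows. Their −log10 q-values ran from 1.302 to 3.52, and 423 of them (29.1%) shared the top value of 3.52 with every IDR peak. In width 1453 of the weaker peaks were 350 bp, against 1091 of the 1244 IDR peaks. At the upper edge the strongest weaker peak (near hlh-29, signal 76.47) stood beside the weakest IDR peak (near lin-9, 76.51). At the lower edge the weakest weaker peak (at ZK622.4, signal 47.34, −log10 q 1.302) stood beside the strongest lower row (at dcap-2, 47.33, −log10 q 1.299). The weaker peaks therefore form an unbroken band of ranks 1245 to 2698 in the pooled list, with no gap in signal on either side.

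Protein-coding gene starts held most summits of weaker peaks, though a smaller share than of IDR peaks. The promoter window, from 1000 bp before to 200 bp past the start of any protein-coding transcript, held 969 of 1454 weaker summits, or 66.6% (95% exact Clopper-Pearson interval 64.2 to 69.1%). The share was 74.8% (72.3 to 77.2%) for IDR peaks, 30.2% for lower rows, and 26.1% for all bases of the genome. The weaker peaks differed from the IDR peaks by -8.20 percentage points (Fisher's exact test, two-sided, adjusted p = 1.93e-05) and from the lower rows by 36.4 points (p = 8.09e-170). Introns held 169 weaker summits, 11.6% (10.02 to 13.4%) against 8.52% (7.03 to 10.2%) of IDR summits (Fisher's exact test, adjusted p = 0.018). Intergenic sequence outside those windows held 285, or 19.6% (17.6 to 21.7%), against 16.0% (14.002 to 18.2%) of IDR summits (Fisher's exact test, adjusted p = 0.024). Intervals and tests count peaks, which are not independent replicates, and cover counting error only. At a stricter −log10 q of at least 2 the intron and intergenic differences of 1.82 and 3.81 points no longer passed (Fisher's exact tests, adjusted p = 0.20 and 0.051).

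Coding sequence was nearly empty of weaker summits outside the start windows. Only 7 weaker summits (0.481%) lay in coding sequence, which covers 18.8% of the genome outside those windows, against 1 IDR summit (Fisher's exact test, adjusted p = 0.092) and 6.45% of lower rows. Annotated 3′ UTRs held 17 weaker summits, or 1.17% (0.683 to 1.87%), and 3 IDR summits, or 0.241% (Fisher's exact test, adjusted p = 0.017). That call was lost at a −log10 q of at least 2, where the adjusted p of Fisher's exact test was 0.051, and in replicate 2 alone, where it was 0.10. Annotated 5′ UTRs held 7 weaker (0.481%) and 4 IDR summits. Outside the start windows, 5′ UTRs cover 0.418% of the genome and 3′ UTRs 2.34%. In the list of replicate 2 alone, 6.33% of the 1454 peaks at ranks 1245 to 2698 lay in coding sequence, against 1.37% of the 1244 above them (Fisher's exact test, adjusted p = 3.24e-11), so there the coding difference did pass. None of those 1454 peaks had a q-value under 0.05 in replicate 2, unlike the weaker peaks in the pooled list.

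**Figure D1:**
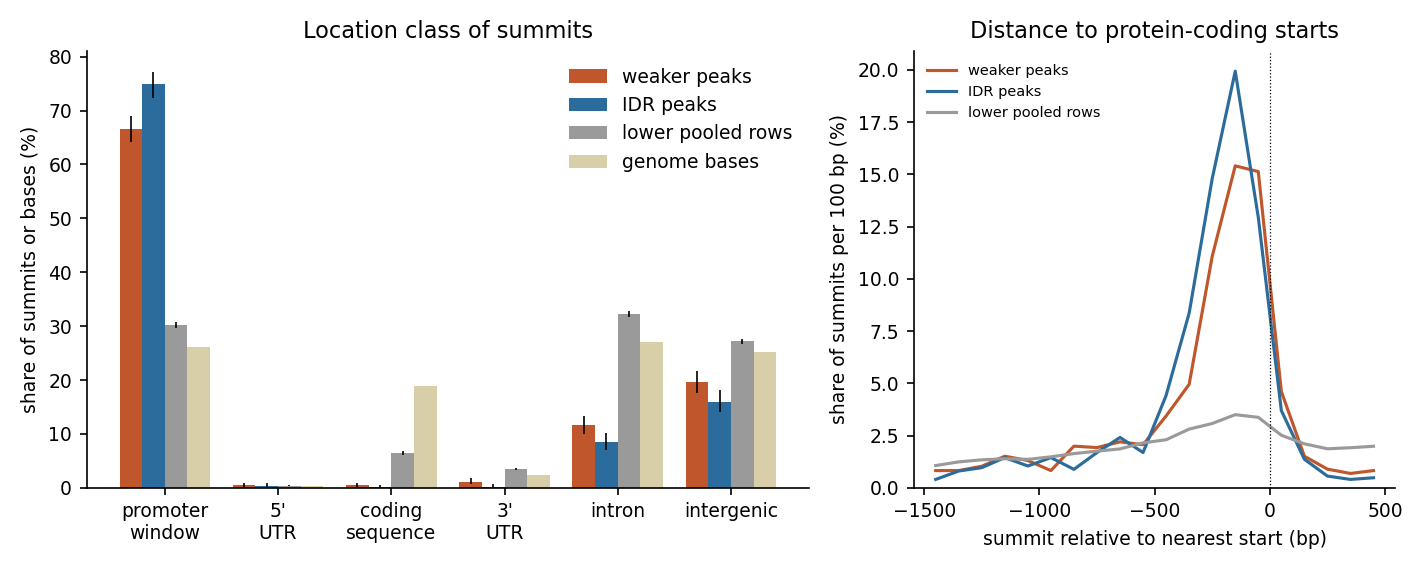
Left, share of summits (%) in each location class for weaker peaks, IDR peaks and lower rows, with 95% exact intervals, beside the share of genome bases. Right, share of summits (%) per 100 bp of signed distance to the nearest protein-coding start. The weaker peaks stand at 66.6% in promoter windows, next to 74.8% of IDR peaks and far above the 30.2% of lower rows, and both peak sets crest just upstream of the start.

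The position of weaker summits relative to starts was close to that of IDR summits. The median distance from the nearest start was 175.5 bp upstream for weaker peaks, 195 bp upstream for IDR peaks and 17 bp upstream for lower rows. Within promoter windows the medians were 164 bp for weaker peaks and 187 bp for IDR peaks, with quartiles of 62 and 310 bp against 95.5 and 321 bp upstream. Intergenic weaker summits were upstream of their nearest start in 72.6% of cases, against 67.8% for IDR peaks. Of the weaker promoter peaks 268 of 969, or 27.7% (24.9 to 30.6%), lay in windows of genes on both strands, against 36.5% (33.4 to 39.7%) of IDR promoter peaks (Fisher's exact test, p = 3.58e-05). The difference in this share between divergent starts was -8.86 percentage points.

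Through the band the promoter share declined with rank. In 5 successive groups of weaker peaks from strongest to weakest (290 in the first, 291 in each other) it was 72.1%, 68.0%, 65.3%, 63.9% and 63.9%. The 4 equal groups of IDR peaks above held 80.1%, 74.6%, 74.6% and 70.1%, and the 5 groups of lower rows just below the q-value threshold 61.4%, 55.0%, 52.9%, 46.4% and 45.4%. The strongest weaker group, at 72.1% (66.5 to 77.2%), overlapped in its interval with the weakest IDR group, at 70.1% (64.7 to 75.1%).

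The strongest weaker peaks stood at genes of varied function. Of the 15 strongest, 8 were in promoter windows: those of W01D2.3, bath-40, F59A3.7, the pair C06A5.3 and simr-1, npp-8, which encodes a nuclear pore protein, the pair tdpt-1 and tfg-1, the pair cdf-1 and glr-8, and vars-1, which encodes a valyl-tRNA synthetase. Another 6 were intergenic, with nearest starts at hlh-29, dcp-66, mig-15, ZK930.6, F28H1.1 and rga-9, and 1 was in an intron of C46H3.2. The vars-1 peak (chromosome V, 8031129 to 8031478, summit 107 bp upstream) had a pooled signal of 76.0, and ranked 971 in replicate 1 and 929 in replicate 2. The bath-40 peak (signal 76.35, summit 168 bp upstream) held ATTGAT as well as ACGCAG, plus GAGAGA, within 50 bp of its summit. It ranked 778 in replicate 1 and had no peak in the list of replicate 2.

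Weaker summits and IDR summits were each at a small share of genes. A weaker summit lay in the start window of 1248 of 19973 protein-coding genes, 6.25% of all, and an IDR summit in that of 1291, 6.46% of all. Both were at 50 genes, so 4.01% of the genes with a weaker summit had an IDR summit too, against 6.46% of all genes, a difference that was not tested. Of the 969 weaker promoter peaks 924 (95.4%) had no IDR summit at any gene of their window, and 289 lay in the windows of 2 or more genes, which share that peak. Only 26 genes had 2 or more weaker summits. The distance from a weaker summit to the nearest IDR summit had a median of 22608.5 bp; 263 weaker summits lay within 5000 bp, 67 within 1000 bp and 24 within 350 bp of one.

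In the cell cycle and DNA replication list, weaker summits stood at genes of several roles, some replication licensing genes and cell cycle kinases among them. They were in the windows of 25 of 70 list members, or 35.7% (24.6 to 48.1%), against 6.25% of all genes; IDR summits were at 19, or 27.1% (17.2 to 39.1%). Of the 25 members 23 had no IDR summit, as had 96.0% of all genes with a weaker summit. The 23 included mcm-2, mcm-3, mcm-4 and mcm-6, subunits of the replicative helicase, and orc-1, orc-3 and orc-5, subunits of the origin recognition complex. Signals in this list ran from 48.5 to 74.99 with a median of 56.9. The strongest was the peak shared by cdk-1, which encodes the mitotic cyclin-dependent kinase, and iff-1 (chromosome III, summit 66 bp upstream of cdk-1); its signal was 74.99, and it ranked 1119 in replicate 1 and 2308 in replicate 2. The peak shared by cyb-1, a B-type cyclin, and orc-5 had a signal of 73.9 and ranked 1725 and 12172. The peaks at mcm-4 (signal 50.5, ranks 1918 and 1073) and mcm-6 (49.7, ranks 1570 and 1829) were weaker in the pooled list but ranked higher in replicate 2 than those of cdk-1 and cyb-1. No peak in the list of replicate 2 overlapped those at cdk-2, cdk-12, cdc-25.3, dpl-1 and rnr-1. The list also holds genes of other known roles: cdk-8, cdk-9 and cdk-12 encode kinases that act on transcription, and cdc-48.2 an ATPase of protein quality control. These 4, the mcm genes, orc-1, orc-3 and the last 5 genes were named after their values were seen.

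Proteasome subunit genes had a like share at weaker summits. Weaker summits lay at 11 of 33 members, or 33.3% (17.96 to 51.8%), and IDR summits at 9 others, so that 20 of 33 had either. Among all genes with a weaker summit, 96.0% had no IDR summit. The strongest of the 11 were rpt-4 (signal 72.7, summit 139 bp upstream, ranks 1346 and 5141), pbs-3 (72.5, 200 bp upstream, ranks 1446 and 794) and rpt-1 (72.1, 100 bp upstream, ranks 915 and 18679). The rpt genes encode ATPases of the regulatory particle and pbs-3 a beta subunit of the catalytic core. All 11 had a peak in the lists of both replicates, as did 82.9% of all weaker peaks, a difference that was not tested.

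Cytosolic ribosomal protein genes mostly had IDR summits. Of 79 members 9 had a weaker summit, 11.4% (5.34 to 20.5%), and 60 an IDR summit, 75.9% (65.0 to 84.9%). These 9 were not among the 60, and 10 members had neither. Of all genes with a weaker summit, 96.0% likewise had no IDR summit. The strongest of the 9 were rps-7 (signal 76.0, ranks 1164 and 24736), rpl-25.2 (70.6, ranks 1179 and 4182) and rpl-2 (68.2, ranks 1274 and 22376). Splicing factor and snRNP genes had 7 weaker and 24 IDR members of 53, led among the weaker peaks by prp-18 (signal 73.5), rnp-2 (69.8) and snrp-40.1 (65.5). Mitochondrial ribosomal proteins had 8 weaker and 14 IDR members of 66, with mrpl-16 (72.1), mrps-16 (68.1) and mrps-6 (61.7) the strongest. The mrps-6 peak lay also in the window of the proteasome gene rpn-8.

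Other housekeeping lists had shares of weaker summits above that of all genes. Chaperone genes had 12 of 65 (18.5%), with dnj-29 (signal 73.2), the prefoldin gene pfd-5 (71.5) and the chaperonin gene cct-2 (67.9) the strongest. The peak between hsp-16.2 and hsp-16.41, a divergent pair of small heat shock genes, had a signal of 61.3 and ranked 1297 and 956. Respiratory chain genes had 10 of 53 (18.9%), led by cox-4 (71.9), cox-14 (68.9) and mev-1 (63.8), a subunit of complex II. Translation factor and tRNA synthetase genes had 11 of 64 (17.2%), with vars-1, iff-1 (74.99) and sars-2 (71.3) the strongest. Secretory pathway genes had 17 (16.8%), led by copa-1 (74.6), arf-6 (73.7) and vps-2 (72.2). In the same order, IDR summits were at 18, 17, 18 and 28 members of these lists.

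Histone genes had 13 weaker and 15 IDR members of 80, and 4 members had both. The peak between his-1 and his-2 (signal 75.6) ranked 1242 and 6292, and that between his-63 and his-64 (67.1) 1512 and 9647. Copies of the replicative histone genes are nearly identical, so the assignment of a peak to 1 copy is uncertain. The list of chromatin modifiers, drawn by symbol and so holding some WD-repeat genes of other function, had 15 members with a weaker summit (14.3%). It was led by wdr-20 (72.0), mes-6 (71.4), a subunit of the worm Polycomb repressive complex, and set-3 (69.6). A second member of that complex, mes-2, had a peak of signal 49.2; it was named after its value was seen.

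Developmental and tissue lists had shares of weaker summits below, near or above the 6.25% of all genes. Nuclear hormone receptor genes had 10 of 269, or 3.72%, with an interval that reaches the share of all genes (1.80 to 6.73%), led by nhr-142 (68.9), nhr-32 (66.5) and nhr-2 (65.6). No cuticle collagen of 174 had one, a count that allows a share of up to 2.10%, and none of the 6 ONECUT genes, which allows up to 45.9%. Of 63 homeobox ceh genes 1 had a weaker summit, ceh-93 (52.8). Of 34 lineage and Hox regulators 3 had one, 8.82% (1.86 to 23.7%): lit-1 (71.3), a Nemo-like kinase gene of Wnt signalling, skn-1 (48.9), which specifies early blastomere fate, and sys-1 (49.2), a beta-catenin gene whose weaker summit lay 200 bp from an IDR summit. Of 24 pan-neuronal genes 1 had one, unc-119 (71.03). That peak ranked 1129 in replicate 1 and 26685 of 27014 in replicate 2, and unc-119 is the gene mutated in the strain. Within 20000 bp of the unc-119 start lay 2 weaker summits, 23 lower rows and no IDR summit. A relation to the mutation or the transgene was not tested.

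Of 23 genes of sex determination and dosage compensation, 1 had a weaker summit, 4.35% (0.110 to 21.9%) against 6.25% of all genes, and 4 an IDR summit. The 1 was sdc-1, which acts downstream of xol-1 in hermaphrodite sex determination and dosage compensation (X, 16275239 to 16275588, summit 349 bp upstream). Its signal was 51.4, its summit window held ACGCAG and GAGAGA and neither ONECUT core, and it ranked 1750 in replicate 1 with no peak in the list of replicate 2. No weaker summit lay in the window of xol-1; the nearest, of signal 52.8, was 11954 bp upstream, and 3 lay within 20000 bp. Around ceh-39, the factor carried by the transgene, 4 weaker summits lay within 20000 bp of the start, the nearest 4309 bp upstream (signal 51.3). Their relation to the transgene was not tested.

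**Figure D2:**
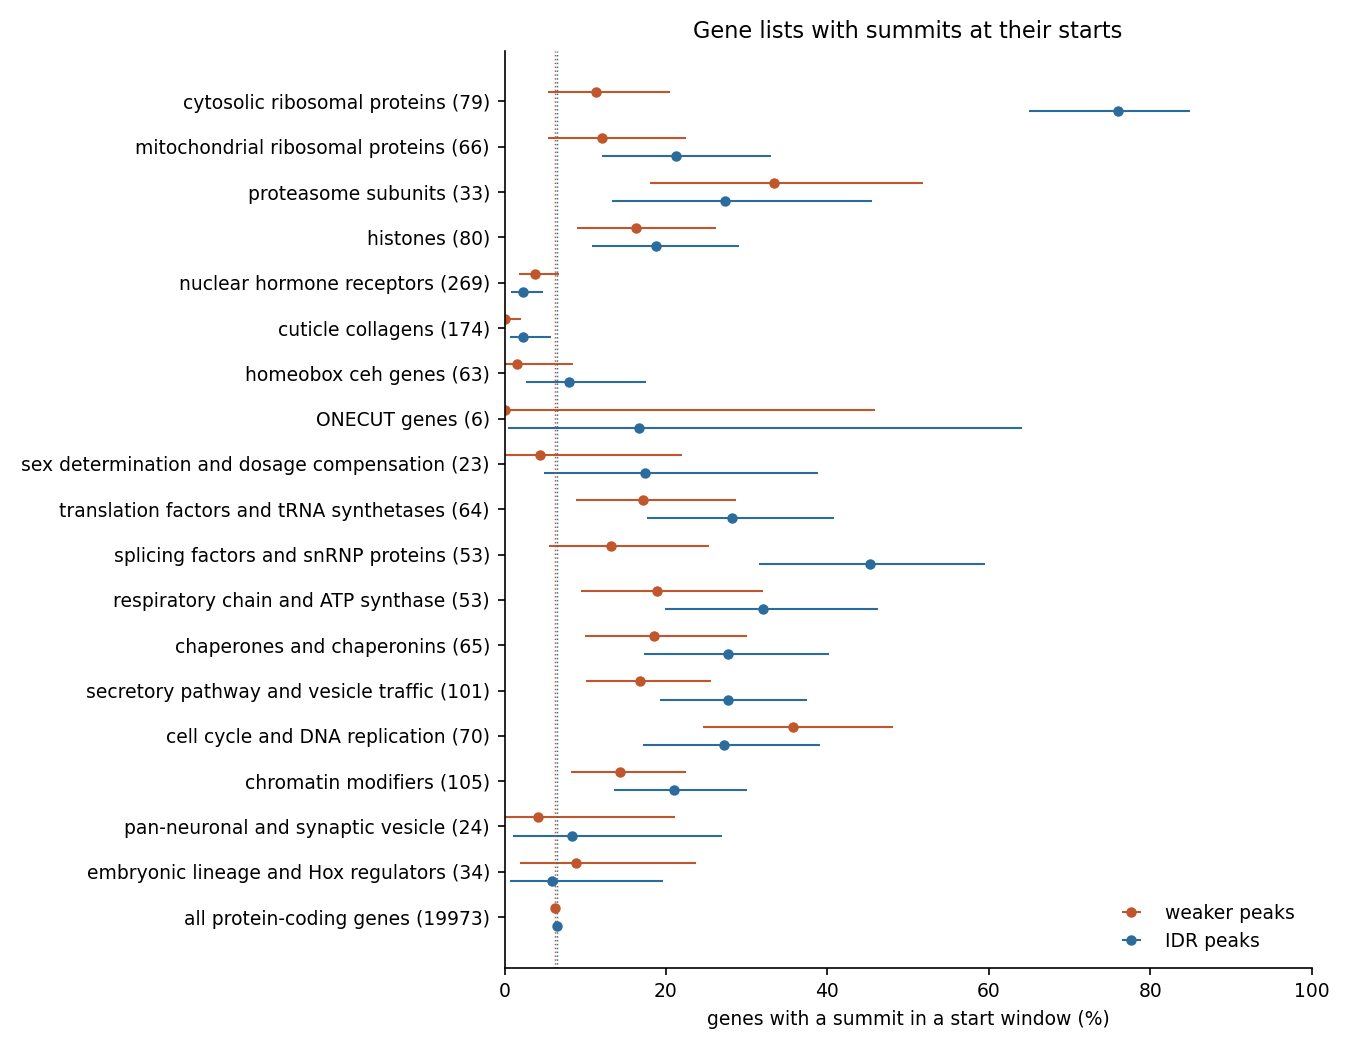
Share of the genes of each list (%) with a summit in a start window, for weaker peaks and IDR peaks, with 95% exact intervals; the number of genes in each list is in brackets and the dotted lines mark all protein-coding genes. Weaker peaks stand highest in the cell cycle list (35.7%) and the proteasome list (33.3%), while IDR peaks stand at 75.9% in the cytosolic ribosomal list.

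Weaker summits held the ONECUT core ATCGAT more often than their flanks did, and less often than IDR summits. It lay within 50 bp of 186 weaker summits, 12.8% (11.1 to 14.6%), against 5.16% of windows 350 bp to the lower-coordinate side of the same peaks (exact McNemar test, adjusted p = 2.05e-13). At IDR summits the share was 17.4% (15.4 to 19.7%), a difference of -4.65 percentage points (Fisher's exact test, adjusted p = 0.0010). In promoter windows 12.9% of weaker and 16.2% of IDR peaks held it (Fisher's exact test, p = 0.043). Outside them 12.6% of weaker and 21.1% of IDR peaks did (Fisher's exact test, p = 0.0015), while in the list of replicate 2 alone the shares at the matching ranks were 3.43% and 5.96% (p = 0.054). Of intronic summits 28 of 169 weaker ones held it, 16.6% (11.3 to 23.05%), against 29 of 106 IDR summits, 27.4%. The promoter difference no longer passed at a −log10 q of at least 2 (14.1% against 16.2%, Fisher's exact test, p = 0.28).

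The excess of ATCGAT over the flank was seen in replicate 1 and did not pass in replicate 2. In the list of replicate 1 alone, the 1454 peaks at ranks 1245 to 2698 held it in 14.1% of windows against 5.43% of flanks. In the list of replicate 2 alone, the peaks at the same ranks held it in 5.09%, against 4.47% of flanks (exact McNemar test, adjusted p = 0.47). That list had 790 peaks with a q-value under 0.05, and none of the 1454 at those ranks was among them. In the 4 groups of IDR peaks of the pooled list ATCGAT was at 21.5%, 16.7%, 14.5% and 17.04%, highest in the strongest group. Below them ATCGAT did not follow the promoter share. In the 5 groups of weaker peaks it was 14.5%, 12.03%, 13.4%, 11.3% and 12.7%. In the 5 groups of lower rows just below it was 8.97%, 11.3%, 12.7%, 11.7% and 12.4%. Over all 27302 lower rows it was 4.85%.

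The second core, ATTGAT, did not differ detectably in share between weaker summits and their flanks, and was more frequent there than at IDR summits. It lay within 50 bp of 154 weaker summits, 10.6% (9.06 to 12.3%), and in 9.70% of flanks (exact McNemar test, adjusted p = 0.44). At IDR summits it was at 5.87%, with weaker summits 4.72 percentage points higher (Fisher's exact test, adjusted p = 2.10e-05), and IDR flanks held it in 12.3%. In the strongest group of weaker peaks its share was 12.4% (8.85 to 16.8%), against 4.18% (2.24 to 7.04%) in the weakest group of IDR peaks. In the list of replicate 2 alone the difference between such ranks was 2.09 points and missed the threshold (Fisher's exact test, adjusted p = 0.059). Base composition moved with this result: the median G+C content of the summit windows was 43.6% in weaker peaks, 47.5% in IDR peaks and 30.7% in lower rows. Among windows of 40 to 50% G+C, ATTGAT was in 7.75% of 619 weaker and 5.50% of 600 IDR peaks, a difference that missed the threshold (Fisher's exact test, adjusted p = 0.27). ATCGAT in those windows was in 13.7% of weaker and 19.5% of IDR peaks (Fisher's exact test, adjusted p = 0.028). The choice of composition range was made after the data were seen.

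**Figure D3:**
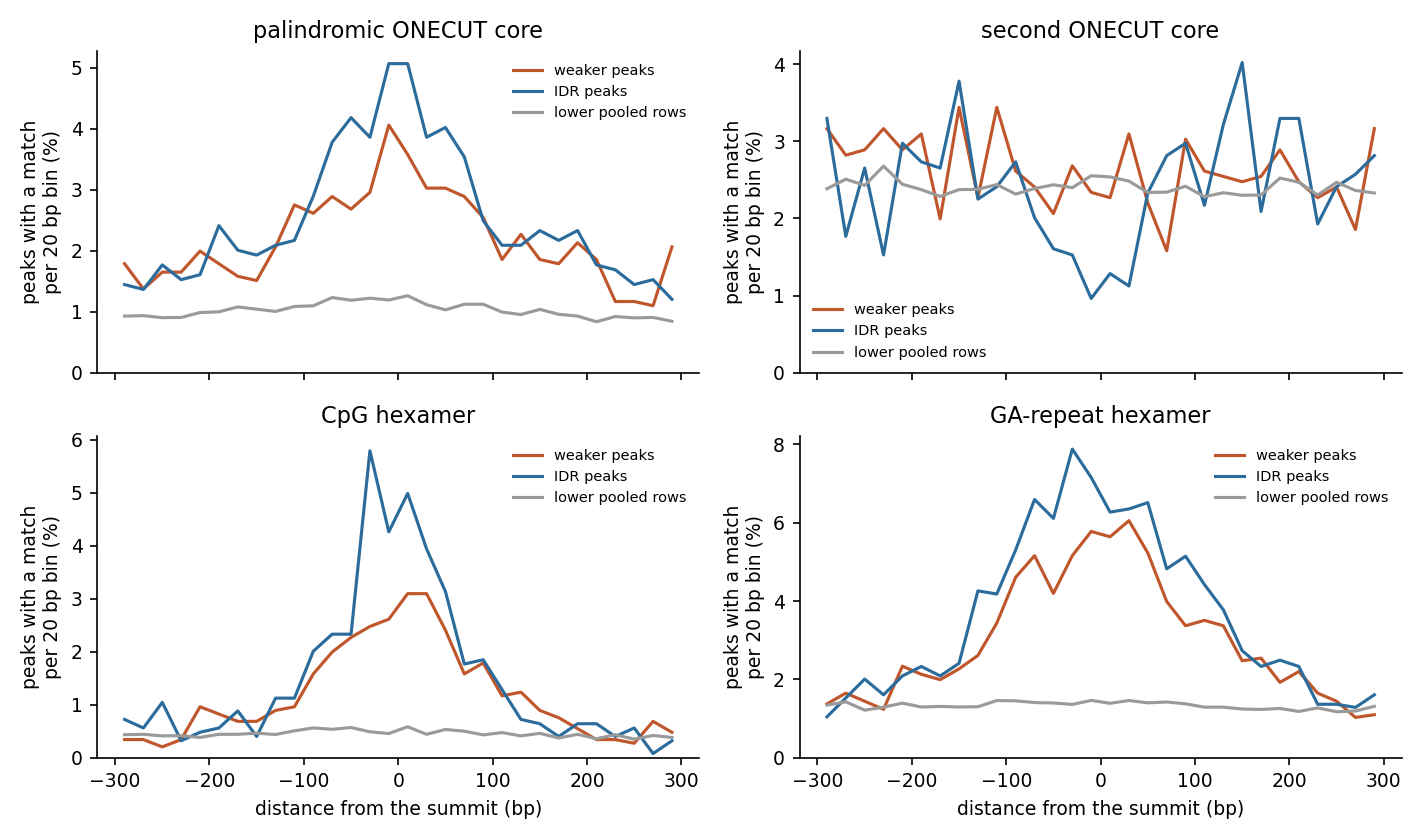
Share of peaks (%) with a match starting in each 20 bp bin, by distance from the summit (bp), for weaker peaks, IDR peaks and lower rows: ATCGAT is the palindromic ONECUT core, ATTGAT the second core, ACGCAG the CpG hexamer and GAGAGA the GA-repeat hexamer. Weaker peaks crest at the summit for 3 of the 4 hexamers, below the IDR peaks. For the second core they stand at 2.34% in the bin from -20 to 0 bp, where IDR peaks stand at 0.965%.

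The hexamers GAGAGA and ACGCAG, which led the ranking at IDR summits in an earlier analysis of these data, were also present at weaker summits. They were chosen with that result known, so a lower share at weaker than at IDR summits was favoured in advance. Their tests against IDR summits are given as a description. GAGAGA lay at 301 weaker summits, 20.7% (18.6 to 22.9%), against 5.85% of their flanks (exact McNemar test, adjusted p = 7.15e-34) and 25.3% of IDR summits (Fisher's exact test, adjusted p = 0.0050). With replicate 1 alone that difference was -3.18 points, which missed the threshold (Fisher's exact test, adjusted p = 0.056). ACGCAG lay at 185, 12.7% (11.05 to 14.5%), against 1.93% of flanks (exact McNemar test, adjusted p = 5.83e-30) and 19.5% of IDR summits (Fisher's exact test, adjusted p = 7.30e-06). Intergenic weaker peaks held ACGCAG in 18.2% (13.9 to 23.2%) and promoter ones in 11.9% (9.90 to 14.1%), an untested difference. In windows of 40 to 50% G+C, ACGCAG was in 16.6% of weaker and 18.3% of IDR peaks and GAGAGA in 26.3% and 27.3%, and neither difference passed (Fisher's exact tests, adjusted p = 0.60 and 0.70). ATCGAT stood with ACGCAG or GAGAGA in 35 weaker peaks: 8.73% (6.15 to 11.9%) of peaks with either of those hexamers held it, against 14.3% (12.3 to 16.6%) of peaks with neither. None of the 4 hexamers lay within 50 bp of 809 weaker summits, 55.6% of them.

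Over all 2080 hexamers, strands merged, 382 (18.4%) were more frequent at weaker summits than in flanks and 308 (14.8%) less frequent at an adjusted p under 0.05 (exact McNemar tests). The first was GAGAGA, followed by AGAGAC (15.5% against 3.03%) and then by ACGCAG, while the ONECUT core ATCGAT stood at place 38. Of the 382, 263 had at least 4 G or C, and of the 308, 18 did. Against IDR summits 83 hexamers (3.99%) were more frequent at weaker summits and 99 (4.76%) less frequent (Fisher's exact tests, adjusted p under 0.05). Of those 83, 77 had at most 2 G or C, such as AAAAAA (31.1% of weaker and 20.02% of IDR windows), and of those 99, 78 had at least 4, such as CGCGAC (2.20% and 7.32%) and AGCGCG (6.88% and 14.4%). At ranks 1245 to 2698 of replicate 2 alone, 4 hexamers were more frequent than in flanks and 2 less frequent; against the stronger peaks 129 were more and 241 less frequent. In replicate 1 alone 50 were more and 72 less frequent than in the stronger peaks.

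**Figure D4:**
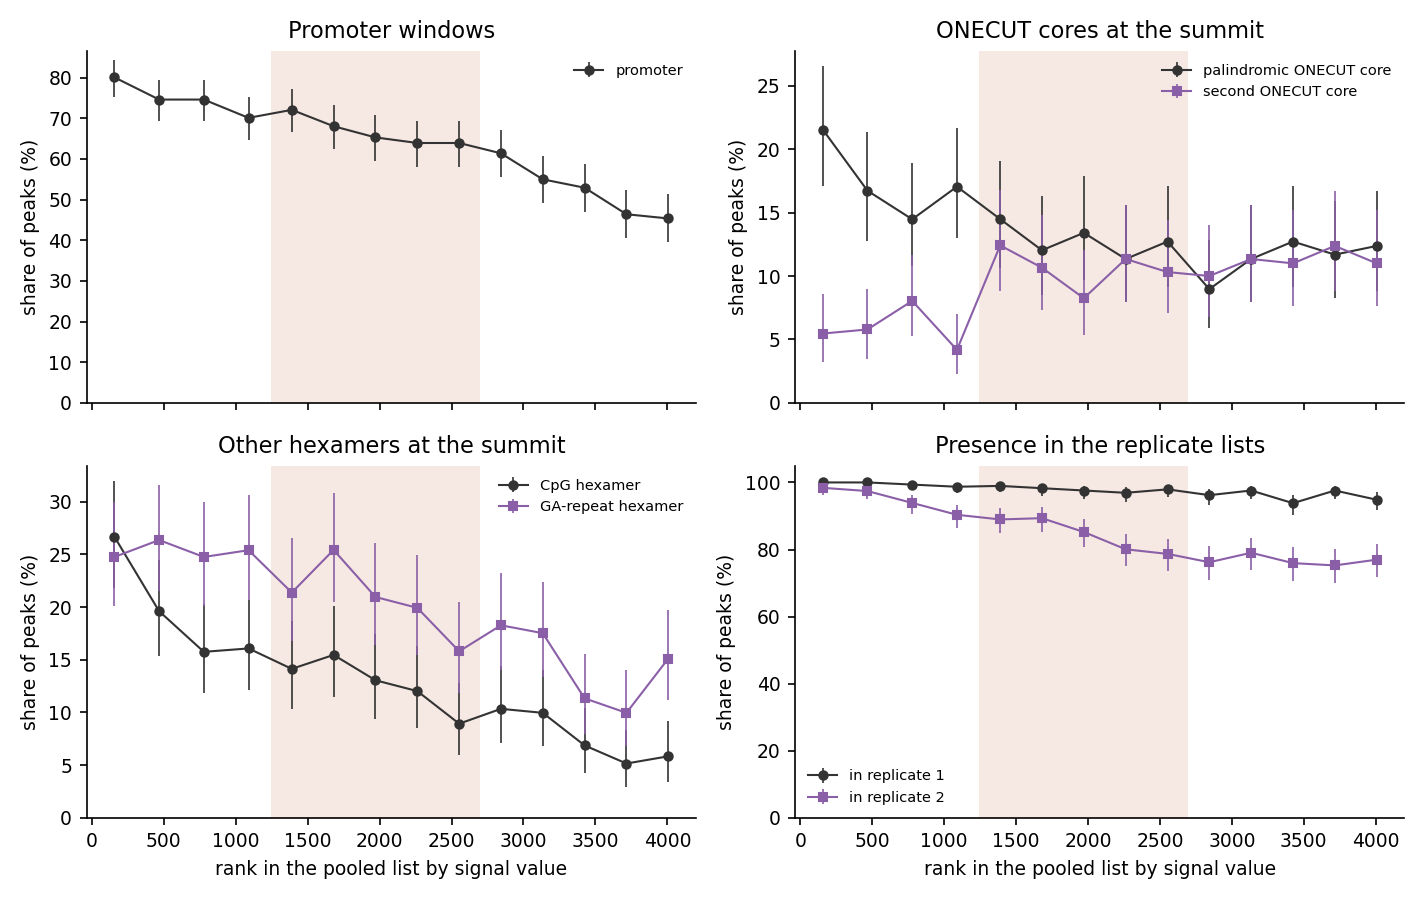
Share of peaks (%) in successive groups of pooled rank, with 95% exact intervals, from IDR peaks on the left through weaker peaks (shaded) to the next lower rows; panels show promoter windows, the ONECUT cores, the CpG (ACGCAG) and GA-repeat (GAGAGA) hexamers, and presence in each replicate's list. The promoter share declines across the shaded band, and the CpG hexamer is lower at its right edge than at its left. In the band the palindromic core stays between 11.3% and 14.5%. The second core is at 8.25% to 12.4% in the band, against 4.18% to 8.04% in the groups of IDR peaks.

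Nearly every weaker peak had a peak in the list of replicate 1, and fewer did in that of replicate 2. These values are a description, since the pooled list that chose the peaks holds the reads of both replicates. At an overlap of at least 1 bp, 1424 weaker peaks, or 97.9% (97.07 to 98.6%), were in the list of replicate 1, and 1228, or 84.5% (82.5 to 86.3%), in that of replicate 2. The IDR shares were 99.5% and 95.02%, and those of lower rows 69.2% and 50.9%. The lists of replicates 1 and 2 cover 10.6% and 8.26% of the genome. Both lists held 1205 weaker peaks (82.9%), replicate 1 alone held 219 (15.1%), replicate 2 alone 23 (1.58%), and neither held 7. With summits required to lie within 100 bp of each other, 93.7% of weaker peaks were in the list of replicate 1 and 62.04% in that of replicate 2.

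At a q-value under 0.05 the replicates differed far more. Among weaker peaks, 1354 (93.1%) overlapped such a peak of replicate 1 as their best match and 145 (9.97%, interval 8.48 to 11.6%) one of replicate 2, against 99.5% and 47.5% of IDR peaks. Both replicates passed at 120 weaker peaks (8.25%) and at 587 IDR peaks (47.2%). Of all weaker peaks, 24 in replicate 1 and 22 in replicate 2 had a match that an IDR peak shared. Those were not left out of these counts. The median weaker peak ranked 1975.5 of 30000 in replicate 1, with quartiles of 1535.75 and 2526.25, and 3190 of 27014 in replicate 2, with quartiles of 1350.75 and 8388. IDR medians were 618.5 and 790. Seen from the replicates, weaker and not IDR peaks covered 1358 of the 3958 peaks of replicate 1 with a q-value under 0.05 (34.3%) and 130 of the 790 of replicate 2 (16.5%).

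The weaker peaks with the best ranks in both replicates mostly lay beside an IDR peak. Ordered by the worse of both replicate ranks, 9 of the first 10 had an IDR summit 199 to 216 bp away, and so did 24 weaker peaks in all within 350 bp, each matched to a replicate 1 peak that an IDR peak matched too. Their nearest starts were ZK1248.17, vha-1, hsp-12.3, ZK154.5, Y37A1B.7, tif-1A, C37A2.7, sys-1 and T26C11.4, and the remaining one, let-70, had its nearest IDR summit 28354 bp away. Among weaker peaks that shared no match, a setting chosen after the data were seen, the first was let-70, which encodes a ubiquitin-conjugating enzyme (chromosome IV, 11082817 to 11083166, signal 69.2, ranks 703 and 608, with ATCGAT and ACGCAG). Next were F17E5.2, lgg-2, an autophagy gene of the LC3 family, vars-1, gsp-2, a protein phosphatase 1 catalytic subunit gene, rgs-7, T09B4.3, T20B12.3, bec-1, the worm beclin gene, and hsp-16.41.

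**Figure D5:**
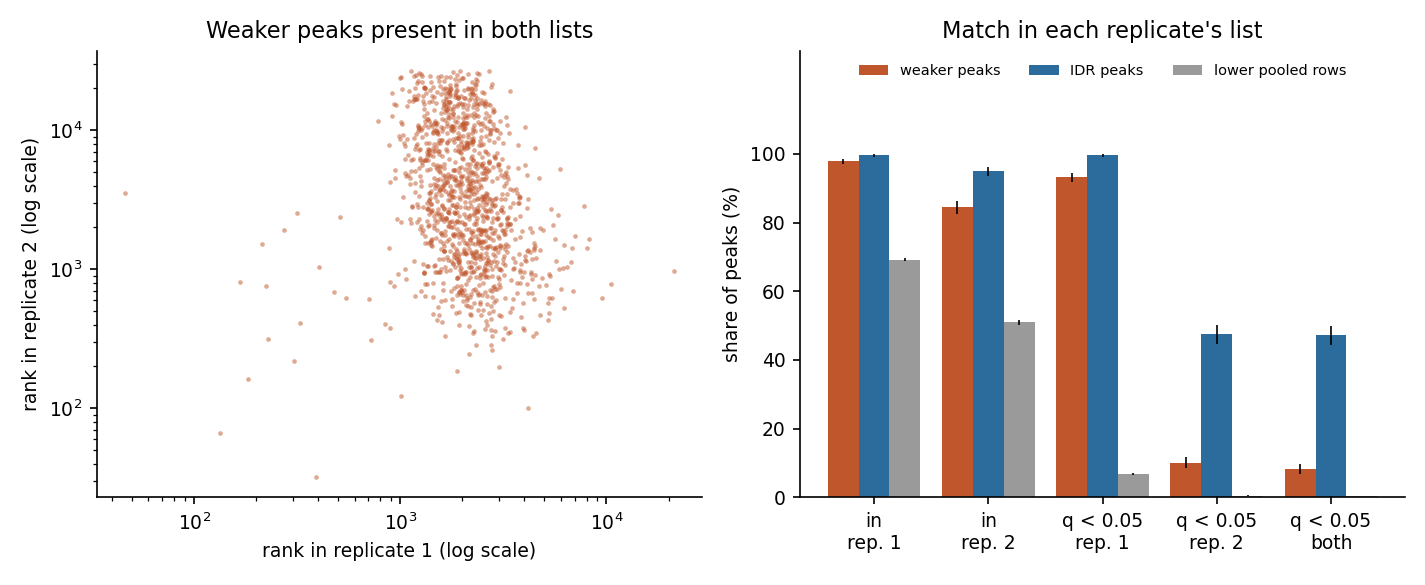
Left, ranks of weaker peaks present in both lists, replicate 1 on the horizontal and replicate 2 on the vertical log scale. Right, share of peaks (%) with a match in each replicate's list and with a match at a q-value under 0.05, for weaker peaks, IDR peaks and lower rows, with 95% exact intervals. Ranks spread wider in replicate 2 (quartiles 1350.75 and 8388) than in replicate 1 (1535.75 and 2526.25), and 9.97% of weaker peaks pass in replicate 2 against 93.1% in replicate 1.

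Presence in the list of replicate 2 was set against location and sequence. The replicate lists are the input for IDR thresholding, and the pooled list holds the same reads. This split therefore rests on values tied to the choice of weaker peaks, and its tests are given as a description. Weaker peaks in that list lay in promoter windows in 67.0% of cases and those not in it in 64.6% (Fisher's exact test, p = 0.49). At a −log10 q of at least 2 these shares were 69.3% and 57.3% (Fisher's exact test, p = 0.012). ATCGAT was in 12.1% of the 1228 peaks in the list and 16.8% of the 226 not in it, which missed the threshold (Fisher's exact test, p = 0.052). The test passed within 25 bp (7.33% against 12.4%, Fisher's exact test, p = 0.016) and within 100 bp (18.7% against 27.4%, p = 0.0037). Of the 145 weaker peaks with a q-value under 0.05 in replicate 2, 10 held ATCGAT, 6.90% (3.36 to 12.3%).

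No chromosome differed in its share between weaker and IDR peaks by the test (Fisher's exact tests, adjusted p of 0.51 or more for all 6). X held 228, or 15.7% (13.8 to 17.7%), against 17.5% (15.4 to 19.8%) of IDR peaks. Chromosome V held 176, or 12.1% (10.5 to 13.9%), against 12.5%. On autosomes the middle 50% of the length held 55.9% of weaker and 56.8% of IDR peaks (Fisher's exact test, p = 0.67), but in the list of replicate 2 alone, at the same ranks, it held 64.6% of weaker and 59.2% of stronger peaks (p = 0.0094). A tRNA gene lay within 500 bp of 52 weaker summits, 3.58% (2.68 to 4.66%), against 2.81% (1.97 to 3.89%) of IDR summits (Fisher's exact test, p = 0.28) and 0.908% of lower rows. In the lists of each replicate alone, at those ranks, the tRNA difference was 1.41 points in replicate 1 (Fisher's exact test, p = 0.024) and -2.59 points in replicate 2 (p = 1.59e-04). At those ranks all 1454 peaks of replicate 1 and none of replicate 2 had a q-value under 0.05. The replicate 2 values here therefore describe rows past the q-value threshold that the weaker peaks meet in the pooled list.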

How the data were processed

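Peak lists in the 10-column narrowPeak layout were used as deposited: the relaxed list of each replicate, the pooled relaxed list and the IDR list, in ce11, with ce10 lists for alternatives that need no annotation. Per the deposited description files, relaxed lists were derived from alignments and a control; those files name no aligner or peak caller. The signal value (column 7) is the authors' score and was used to rank and describe peaks; the −log10 q-value (column 9) was used as deposited. Replicate depth is unknown.

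Gene models came from Ensembl release 115 of WBcel235. A summit was given the first fitting class of promoter window, 5′ UTR, coding, 3′ UTR, intron, intergenic; a gene was counted where a summit lay in its start window. Hexamers were searched on both strands within 50 bp of the summit and 350 bp to the lower-coordinate side; ATCGAT is its own reverse complement. Shares were compared by two-sided Fisher's exact or exact McNemar tests, with Benjamini-Hochberg adjustment over 6 classes, 6 chromosomes, 4 motifs or 2080 hexamers; other tests stood alone. Where several replicate peaks overlapped a peak, the match of best rank was taken. Gene lists are described by counts, with no test.

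Members and lists were chosen with earlier results of these data known. Named genes were the nearest starts of the 15 strongest weaker peaks and of the 10 with the best worse replicate rank, and up to 3 per list with a weaker and no IDR summit. The symbol sex-2 matched no gene. Alternatives changed the q-value threshold, neighbouring peaks, the windows, the flank, the overlap rule, the build and the replicate used. Functions were tested on simulated data. Python 3.11.15, numpy 2.4.6, scipy 1.17.1, pandas 2.3.3 and matplotlib 3.10.9 were used.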

Additional observations from a re-analysis of the deposited data

How the results depend on the processing

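Differences are weaker minus IDR peaks, or summit minus flank, in percentage points, with the same tests as above; 205 of 267 recomputed values kept their direction and side of the threshold, or stayed near their count or share. At a −log10 q of at least 2, which left 909 weaker peaks, intron (1.82), intergenic (3.81), 3′ UTR (0.859), GAGAGA (-2.33) and ATCGAT in promoters (-2.12) no longer passed. There the tRNA difference was -0.283, the promoter share in against not in the list of replicate 2 passed at 12.1, hexamers more and less frequent than at IDR summits fell to 29 and 38, and 87.9% of peaks were in the list of replicate 2. The 3′ UTR difference also no longer passed 2000 bp upstream (0.665), in replicate 2 alone (1.01) or in weaker peaks called in replicate 1 and present in replicate 2 (0.640). Intergenic also no longer passed with 1 peak per cluster (3.18) or 2000 bp upstream (1.79). With a 500 bp window the replicate 2 promoter difference was -2.30. Chromosome V turned to 0.013 without weaker peaks near IDR summits and 0.234 with 1 peak per cluster. Within 25 bp, GAGAGA (-1.71) and ATCGAT in promoters (-1.72) no longer passed, and hexamer counts were 233 and 158 against flanks and 39 and 48 against IDR peaks. Within 100 bp ATTGAT was 2.96 above IDR peaks, which did not pass, and -0.757 against flanks. ATCGAT in against not in the list of replicate 2 passed within 25 bp (-5.06), within 100 bp (-8.70), with weaker peaks near IDR summits left out (-5.45), with 50% of the peak covered (-4.39; 72.9% in replicate 2) and with summits within 100 bp (-3.91; 93.7% and 62.04% in replicates 1 and 2). In windows of 40 to 50% G+C, a setting chosen after the data were seen, ATTGAT (2.25), ACGCAG (-1.69), GAGAGA (-1.001) and ATCGAT in promoters (-2.19) no longer passed, and ATTGAT against flanks was -2.26. Of weaker peaks called in replicate 1 and present in replicate 2 (1135, likewise added), intron (2.32) and ATCGAT in promoters (-2.77) no longer passed, and ATTGAT against flanks was -0.352. With 1 replicate's list alone, the ranges were -0.504 to 1.95 for chromosome V, 0.527 to 4.96 for coding, 0.619 to 8.67 for ATCGAT against flanks, 2.09 to 2.48 for ATTGAT against IDR peaks, -1.17 to -0.069 for ATTGAT against flanks, -6.70 to -3.18 for GAGAGA, -9.23 to -2.53 for ATCGAT outside promoters, -2.78 to 5.44 for the central 50% of autosomes and -2.59 to 1.41 for tRNA genes. Hexamer counts in these lists ranged from 4 to 438 (more) and 2 to 330 (less) against flanks, and from 50 to 129 and 72 to 241 against the stronger peaks. At the ranks used, none of the replicate 2 peaks had a q-value under 0.05. The ce10 lists held 1462 weaker peaks by the same rule. The causes were not tested. No pairing of samples between groups was possible because the series has 1 group. The tests of summits against flanks were paired within each peak. Depth is unknown, so limits of detection cannot be given.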

Other observations

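Intronic weaker summits were spread over many host genes. The 169 summits lay in 155 genes, and 14 genes had 2 or more. The gene glr-2, which encodes a glutamate receptor subunit, had 3 within its 6320 bp, and die-1, flcn-1, daf-5 and jac-1 were among those with 2. The 106 intronic IDR summits lay in 95 genes, of which 10 had 2 or more. Small RNA genes other than tRNA genes also stood near weaker summits: a snoRNA gene lay within 500 bp of 41, or 2.82% (2.03 to 3.81%), against 3.46% of IDR summits and 0.516% of lower rows. A snRNA gene lay within 500 bp of 18, or 1.24% (0.735 to 1.95%), against 1.29% and 0.198%. These shares were not tested.

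Soft-masked bases, the repeats and low-complexity stretches marked in the RefSeq genome, made up a mean of 25.2% of the windows within 50 bp of weaker summits, against 19.7% at IDR summits and 46.8% at lower rows. More than 50% of the window was masked in 16.9% of weaker peaks, 9.57% of IDR peaks and 45.4% of lower rows. The base that follows ATCGAT was T in 196, A in 185, C in 64 and G in 45 of the 490 sides of the 245 copies at weaker summits. In the weaker flanks, with 182 sides, T was in 44.5% and C in 8.24%. At IDR summits C followed in 13.4% of 538 sides.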
